A study of Mus musculus with 6 samples.

Results

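The 10 genes described here encode the core of insulin and insulin-like growth factor (IGF) signalling: the ligand gene Igf1, the receptor genes Insr and Igf1r, the adaptor genes Irs1 and Irs2, the transcription factor gene Foxo1 and the binding protein genes Igfbp3, Igfbp4, Igfbp5 and Igfbp7. They were chosen by name from the 18822 genes with a value, and all 10 were found by their Entrez ID. RNA was sequenced in 6 libraries from renal glomeruli of C57BL/6J mice, the capillary tufts that filter blood. A group of 3 libraries came from mice lacking proteinase 3 (PR3_KO), a serine protease of neutrophil granules, and a group of 3 from wild-type mice (WT). Both genotypes had diabetic kidney disease, so no library comes from a mouse without it. The labels do not name the diabetes model, the age or sex of the mice, any insulin treatment or any batch. Nor do they say whether each library is a separate animal. P-values therefore reflect only the spread among these samples, and that spread may be technical.

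Insulin and IGF1 bind related receptor tyrosine kinases on the cell surface. The active receptors phosphorylate the Irs adaptors, which recruit phosphatidylinositol 3-kinase (PI3K) and so activate Akt, and Akt in turn keeps FoxO transcription factors out of the nucleus. Outside the cell the IGF binding proteins hold the IGFs and release them, in part when proteases cut the binding proteins. In the kidney, insulin acts on podocytes, whose foot processes wrap the glomerular capillaries, and on the proximal tubule, the segment that follows the glomerulus.

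Igfbp4 and Igf1r rose in PR3_KO, while Igf1, Igfbp3 and Igfbp5 fell. Insr, Irs1, Irs2, Igfbp7 and Foxo1 did not pass the test. Thus 5 of the 10 genes passed, beside 52.8% of the 12388 genes tested, a share near the background. Igf1, counted among the 5, reached the tested set (a mean of at least 1 FPKM) only through its WT libraries. The 2 that rose compare with 11.7% of all tested genes and the 3 that fell with 41.1%. The FPKM of the genotypes did not overlap in 5 of the 10 genes, with PR3_KO above WT in 2 and below in 3, beside 65.1%, 16.0% and 49.1% of all tested genes. The test was limma on log2 of FPKM + 1, with a Benjamini-Hochberg adjusted p under 0.05 over all tested genes. FPKM relates the fragments of a gene to its transcript length and to all mapped fragments of the library. Fold changes are on that log2 scale, PR3_KO minus WT, and understate the change of low genes.

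**Figure D1:**
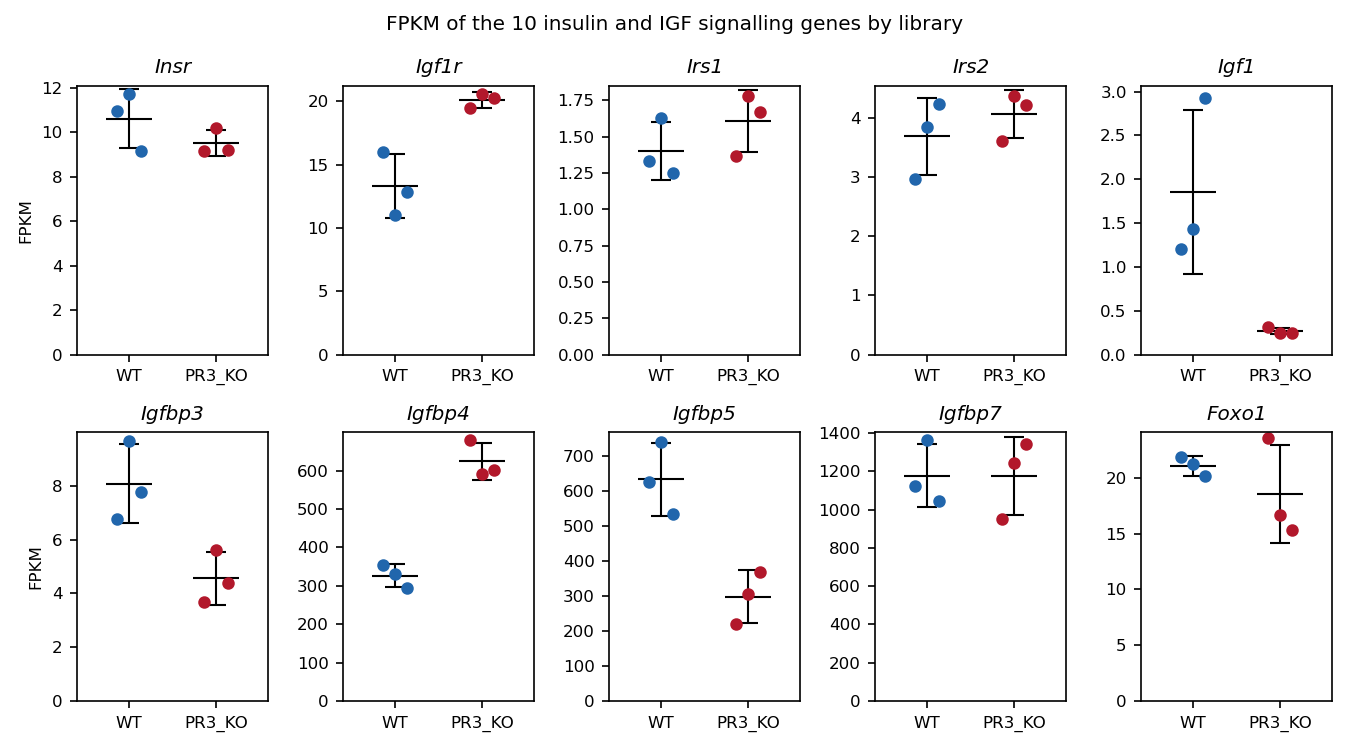
Each panel plots the FPKM of 1 gene on the y axis for the 3 WT libraries (blue) and the 3 PR3_KO libraries (red), in replicate order from left to right, with the mean as a line and the SD as bars. The PR3_KO points lie above all WT points for Igf1r and Igfbp4, below them for Igf1, Igfbp3 and Igfbp5, and overlap them for the other 5 genes.

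The libraries differed widely beyond these genes. Their depth, read from the lowest values of short olfactory receptor genes, was roughly 13300000 to 15200000 fragments. On the first principal component (81.8% of the variance) the genotypes lay apart, WT 2 standing off from its group at 57.9, beside 21.3 for WT 1 and 31.7 for WT 3. The median log2 fold change of all tested genes was -0.26, and 0.03 after median-of-ratios scaling, which sets the typical gene equal between libraries. With that scaling 47.8% of 12340 tested genes passed, of which those that rose made up 25.6% and those that fell 22.2% of the tested genes. The count of 1454 genes that rose as deposited was 916 when PR3_KO 1 was left out and 936 when PR3_KO 3 was. Prtn3, the targeted gene, had an FPKM of 0.14, 0 and 0.07 in PR3_KO 1, 2 and 3 and of 0.46, 0.21 and 0.22 in WT 1, 2 and 3, levels of very few fragments that check the labels only weakly.

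Markers of glomerular and other kidney cells moved with genotype. All 10 markers of the glomerular endothelium fell, and their summed level was 943 to 1349 FPKM in PR3_KO and 2698 to 3268 in WT. All 10 macrophage markers fell, with sums of 34.8 to 71.7 against 271 to 614 FPKM. Of 10 proximal tubule markers 9 rose and 0 fell, with sums of 46522 to 63319 against 7369 to 22005 FPKM, or 5499 to 5976 against 2121 to 3496 FPKM without Kap, the most abundant of them. Of 10 podocyte markers 6 fell and 0 rose, with sums of 342 to 548 against 618 to 987 FPKM, and the podocyte gene Nphs1 was well above the filter in both genotypes. Among mesangial and smooth muscle markers, and among those of the loop, distal tubule and collecting duct, 5 of 10 fell in each list and 0 rose. Over all tested genes 41.1% fell as deposited and 22.2% with scaling, where 3 podocyte, 3 mesangial and smooth muscle and 2 loop, distal tubule and collecting duct markers fell. All 10 endothelial and all 10 macrophage markers fell with scaling too, and 9 of 10 proximal tubule markers rose. The share of all tested genes that rose was 11.7% as deposited and 25.6% with scaling. None of the 60 markers in these lists was listed at 0 in all libraries. In bulk samples fewer cells of a type and less RNA per cell cannot be told apart, and the part that these cell types have in the results that follow was not tested.

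**Figure D2:**
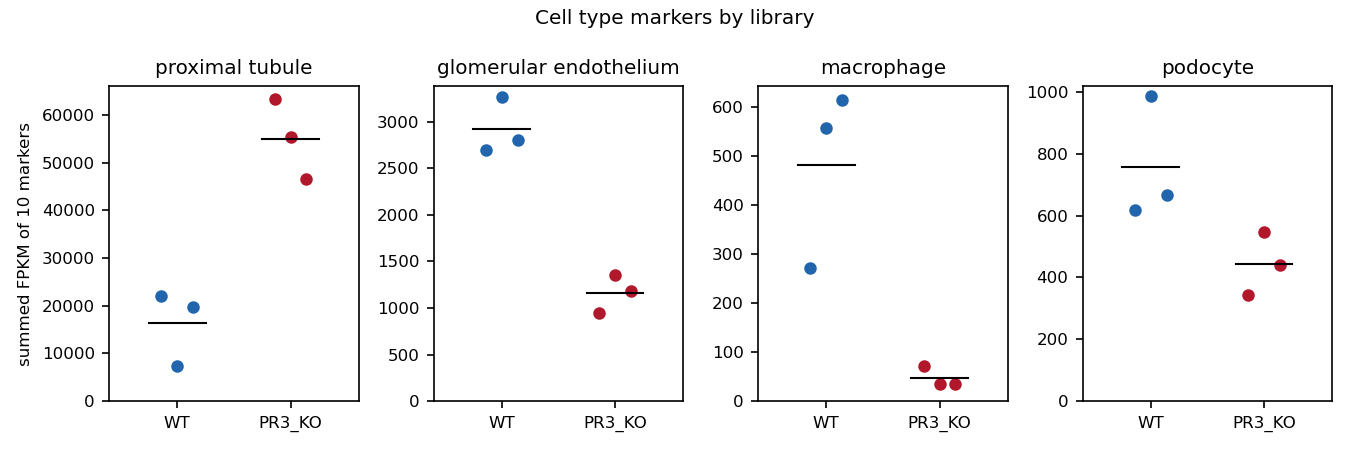
The summed FPKM of 10 marker genes per cell type is plotted for each of the 3 WT (blue) and 3 PR3_KO (red) libraries, with the mean as a line. Proximal tubule sums are higher in every PR3_KO library, and endothelial, macrophage and podocyte sums are lower in every PR3_KO library.

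FPKM is scaled by transcript length, so the levels can be ordered across genes. In WT the order by mean FPKM was Igfbp7, Igfbp5, Igfbp4, Foxo1, Igf1r, Insr, Igfbp3, Irs2, Igf1 and Irs1. The values of Igf1r and Insr overlapped there, as did those of Insr and Igfbp3 and those of Igf1 and Irs1. In PR3_KO Igfbp4 stood before Igfbp5, Igf1r before Foxo1 and Irs1 before Igf1. In that genotype the values of Igf1r and Foxo1 overlapped, as did those of Igfbp3 and Irs2. Igfbp7 ranked 20th of the 12388 tested genes by mean FPKM in WT and 34th in PR3_KO.

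Igf1 encodes the ligand of the IGF1 receptor. Its position is chromosome 10, plus strand, 87858265 to 87937047, in the build GRCm38.p6 used for all positions here. Its FPKM was 0.31, 0.25 and 0.25 in PR3_KO 1, 2 and 3 and 1.21, 1.43 and 2.93 in WT 1, 2 and 3. All 3 PR3_KO libraries were below all WT libraries, and WT 3 was the highest. The mean was 6.88 times higher in WT, at 1.86 ± 0.936 FPKM against 0.27 ± 0.0346 (SD, n = 3 per genotype). The log2 fold change was -1.12 (SE 0.22, limma adjusted p = 0.00437) and -2.31 with a pseudocount of 0.1 in place of 1 (limma adjusted p = 0.00189). Igf1 reached the filter of a mean of 1 FPKM only through its WT libraries. Its annotated coding transcripts run from 510 to 7052 bases, so 0.25 FPKM stands for about 2 to 27 fragments in PR3_KO 2 at the estimated depth. The antisense gene Igf1os overlaps its first 5117 bases, and without a stated use of strand the reads of both cannot be told apart there. The macrophage marker sum was 271, 557 and 614 FPKM in WT 1, 2 and 3, so WT 3 was again the highest. It was 71.7, 34.8 and 35.1 FPKM in PR3_KO 1, 2 and 3. Of the macrophage markers only C1qa, C1qb and C1qc were highest in WT 3. The others were highest in WT 2, such as Csf1r at 18.92, 38.34 and 22.56 FPKM in WT 1, 2 and 3. Macrophages are known to express Igf1, and whether they carried its difference was not tested.

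The related ligand gene Igf2 had a mean of 0.553 ± 0.172 FPKM in PR3_KO and 0.76 ± 0.213 in WT, below the filter (p = 0.3 in an exact two-sided permutation test, n = 3 per genotype). With 3 against 3 libraries the exact permutation test cannot go below p = 0.1.

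The receptor genes Insr and Igf1r encode tyrosine kinases of the same build, which bind insulin and IGF1 respectively and can also pair with each other. Igf1r lies on the plus strand of chromosome 7 (67952257 to 68233668) and Insr on the minus strand of chromosome 8 (3150922 to 3279649), each with 21 exons in its longest coding transcript. Their coding sequences are related, so the longest run of bases they share is shown, to let a reader judge whether a read could be counted for both. The run of 19 bases is in capitals, within coding bases 1630 to 1690 of Insr and 1612 to 1672 of Igf1r, counted from the start codon in GENCODE release M21.
Insr: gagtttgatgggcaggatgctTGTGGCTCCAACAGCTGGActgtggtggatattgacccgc
Igf1r: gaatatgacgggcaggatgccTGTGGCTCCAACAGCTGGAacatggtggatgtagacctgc
None of the 31-base runs in either coding sequence occurs in a transcript of another gene. Stretches outside the coding sequence and inexact matches were not searched.

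The FPKM of Igf1r was 19.44, 20.61 and 20.29 in PR3_KO 1, 2 and 3 and 16.02, 11.04 and 12.83 in WT 1, 2 and 3. The PR3_KO libraries lay close together and above every WT library. This was a log2 fold change of 0.58 (SE 0.13, limma adjusted p = 0.00838), a ratio of means of 1.51. Relative to the median of all genes the difference was 0.83. Insr, by contrast, was at 9.16, 10.21 and 9.20 FPKM in the PR3_KO libraries, against 10.94, 11.74 and 9.16 FPKM in the WT libraries, and the groups overlapped. Its log2 fold change was -0.14 (95% interval -0.40 to 0.13, limma adjusted p = 0.330) and had the opposite sign, 0.16, with median-of-ratios scaling (limma adjusted p = 0.180).

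A plain ratio of both genes within a library does not depend on how libraries are scaled. The log2 ratio that was tested, with 1 added to each value, still does in part. Insr stood at 0.471, 0.495 and 0.453 of the FPKM of Igf1r in PR3_KO 1, 2 and 3, and at 0.683, 1.06 and 0.714 in WT 1, 2 and 3. Every PR3_KO library was below every WT library, and in WT 2 both genes were about level. On the log2 scale with 1 added to each value, the ratio differed by -0.71 (p = 0.1 in an exact two-sided permutation test, its smallest possible value here, and p = 0.167 adjusted over the 5 ratios compared). Igf1, the ligand gene, stood at 0.0159, 0.0121 and 0.0123 of the FPKM of Igf1r in PR3_KO 1, 2 and 3 and at 0.0755, 0.130 and 0.228 in WT 1, 2 and 3, again with no overlap. That log2 ratio differed by -1.70 with 1 added to each value and by -2.92 with 0.1 added (p = 0.1 in an exact two-sided permutation test for each, adjusted 0.167 for the first).

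The adaptor genes Irs1 and Irs2 encode docking proteins that carry the signal from both receptors to PI3K. Irs1 lies on the minus strand of chromosome 1 (82233105 to 82291439) and Irs2 on the minus strand of chromosome 8 (10984681 to 11008929), each with 2 exons. The FPKM of Irs1 was 1.37, 1.78 and 1.67 in PR3_KO 1, 2 and 3 and 1.33, 1.63 and 1.25 in WT 1, 2 and 3. Irs2 was at 3.61, 4.36 and 4.22 FPKM in the PR3_KO libraries, against 2.97, 3.85 and 4.24 FPKM in the WT libraries. For both genes the groups overlapped. The log2 fold changes were 0.12 (95% interval -0.18 to 0.42) for Irs1 and 0.12 (95% interval -0.20 to 0.44) for Irs2, with limma adjusted p = 0.465 and 0.488. After median-of-ratios scaling both passed, Irs1 at 0.31 (limma adjusted p = 0.0456) and Irs2 at 0.38 (limma adjusted p = 0.0389). Irs1 stood at 0.380, 0.408 and 0.396 of the FPKM of Irs2 in PR3_KO 1, 2 and 3 and at 0.448, 0.423 and 0.295 in WT 1, 2 and 3, so the balance of the adaptors overlapped between genotypes (p = 1 in an exact two-sided permutation test, n = 3 per genotype). The antisense coding gene Gm9747 overlaps 2822 bases of Irs1, and reads there cannot be assigned without strand. Antisense genes also overlap Insr (Gm16180), Irs2 (9530052E02Rik), Foxo1 (Gm20402) and Igfbp7 (Gm34648 and the last bases of Polr2b). Gm38034 overlaps 2069 bases of Foxo1 on the same strand, where strand would not tell the genes apart.

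FoxO factors are known to act on insulin response elements in promoters, and Igfbp1 is the textbook target. The core of this element, CAAAACA or its reverse complement TGTTTTG, was searched in the 250 bases before 1 RefSeq transcript start of each gene (GRCm38.p6; for Igf1, Igfbp3 and Igfbp4 that start lies inside the gene span given here), as was the forkhead core GTAAACA or TGTTTAC. The table held 9 of the 10 genes, all but Insr. The element core was found upstream of Irs1 and Irs2, of none of the other 7 of the 10 genes that could be searched, and also upstream of Igfbp1. Among all 32851 promoters 5.56% held it, and 3.17% held the forkhead core, which none of the 9 genes held. The 3 sequences with a match are shown with the core in capitals, 5′ to 3′ on the gene's strand. A match is a description of letters and not a measured site.
Irs1, minus strand, chr1:82291440-82291689: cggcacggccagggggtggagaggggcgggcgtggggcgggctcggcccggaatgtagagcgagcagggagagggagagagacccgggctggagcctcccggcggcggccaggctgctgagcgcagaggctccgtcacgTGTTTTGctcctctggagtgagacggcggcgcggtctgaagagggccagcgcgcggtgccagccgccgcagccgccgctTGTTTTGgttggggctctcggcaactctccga
Irs2, minus strand, chr8:11008930-11009179: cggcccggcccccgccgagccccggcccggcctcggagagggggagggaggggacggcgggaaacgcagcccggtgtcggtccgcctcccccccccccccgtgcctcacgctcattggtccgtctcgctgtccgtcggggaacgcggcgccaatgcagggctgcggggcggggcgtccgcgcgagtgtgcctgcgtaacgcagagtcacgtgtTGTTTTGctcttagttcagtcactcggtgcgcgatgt
Igfbp1, plus strand, chr11:7197537-7197786: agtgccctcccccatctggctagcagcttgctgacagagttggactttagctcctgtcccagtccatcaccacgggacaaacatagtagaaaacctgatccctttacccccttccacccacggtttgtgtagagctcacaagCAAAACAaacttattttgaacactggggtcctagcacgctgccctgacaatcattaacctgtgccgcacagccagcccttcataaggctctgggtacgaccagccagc
Of these 3 genes Igfbp1 rose, from 5.79, 4.47 and 3.12 FPKM in WT 1, 2 and 3 to 11.62, 14.19 and 12.74 FPKM in PR3_KO 1, 2 and 3 (1.37 on the log2 scale, SE 0.18, limma adjusted p = 0.00114).

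Foxo1, the transcription factor at the end of the pathway, lies on the plus strand of chromosome 3 (52268337 to 52350109). Its FPKM was 23.60, 16.69 and 15.37 in PR3_KO 1, 2 and 3 and 21.92, 21.24 and 20.15 in WT 1, 2 and 3. PR3_KO 1 was the highest of all 6 libraries, and the other PR3_KO libraries were below every WT library. The difference was -0.20 on the log2 scale (95% interval -0.55 to 0.15, limma adjusted p = 0.294). Without PR3_KO 1 the gene passed at -0.38 (limma adjusted p = 0.0299), so that library decided the call. With median-of-ratios scaling the value was 0.12 (limma adjusted p = 0.604). Of the 1926 runs of 31 bases in its coding sequence 8 also occur in Foxo3, another member of its family.

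Igfbp7, Igfbp5 and Igfbp4 were the most abundant of the 10 genes in both genotypes, while Igfbp3 stood far lower. Igfbp4, a secreted protein that restrains IGF action until it is cut, lies on the plus strand of chromosome 11 (99040005 to 99052655). Its FPKM was 680.25, 590.48 and 601.88 in PR3_KO 1, 2 and 3 and 354.30, 330.07 and 294.40 in WT 1, 2 and 3. The lowest PR3_KO library was well above the highest WT library. The mean was 1.91 times higher in PR3_KO (624 ± 48.9 against 326 ± 30.1 FPKM, SD, n = 3 per genotype). Its log2 fold change of 0.94 (SE 0.13, limma adjusted p = 0.00143) is 1.19 above the median of all genes, and Igfbp4 moved from rank 256 to rank 107 of the tested genes.

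Igfbp5, which binds IGFs and also extracellular matrix, lies on the minus strand of chromosome 1 (72858065 to 72874865). Its FPKM was 219.79, 306.34 and 370.16 in PR3_KO 1, 2 and 3 and 626.12, 741.97 and 533.91 in WT 1, 2 and 3. Here every PR3_KO library was below every WT library. The mean was 2.12 times higher in WT (634 ± 104 against 299 ± 75.5 FPKM, SD, n = 3 per genotype), with a log2 fold change of -1.10 (SE 0.22, limma adjusted p = 0.00457). The gene moved from rank 98 to rank 303.

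Igfbp3, the main carrier of IGFs in blood, was far less abundant. It lies on the minus strand of chromosome 11 (7206086 to 7215498). Its FPKM was 3.68, 5.61 and 4.37 in PR3_KO 1, 2 and 3 and 6.78, 9.67 and 7.76 in WT 1, 2 and 3, again with no overlap. Its fold change was -0.71 on the log2 scale (SE 0.17, limma adjusted p = 0.00942), and the scaled value was -0.43 (limma adjusted p = 0.0368). Igfbp3 stood at 0.0118 to 0.0183 of the FPKM of Igfbp5 in PR3_KO and at 0.0108 to 0.0145 in WT, so their ratio overlapped between genotypes (p = 0.2 in an exact two-sided permutation test, adjusted 0.25, n = 3 per genotype).

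Igfbp7 is a relative that binds IGFs weakly and is abundant in vessel walls. On chromosome 5 it occupies 77349240 to 77408045 of the minus strand. Igfbp7 had an FPKM of 949.00, 1243.34 and 1340.31 in PR3_KO 1, 2 and 3 and of 1122.69, 1363.24 and 1045.72 in WT 1, 2 and 3. Both genotypes covered the same range, with means of 1178 and 1177 FPKM. The log2 fold change was -0.01 (95% interval -0.43 to 0.42, limma adjusted p = 0.981), and the scaled value was 0.32 (limma adjusted p = 0.189).

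Igfbp3, Igfbp4 and Igfbp5 are related in sequence. A stretch late in their coding regions is shown, where Igfbp3 has its longest shared run with each of the others. The run shared by Igfbp3 and Igfbp5 is 22 bases long, at coding bases 764 to 827 of Igfbp3 and 695 to 758 of Igfbp5 with its flanks, and is in capitals.
Igfbp3: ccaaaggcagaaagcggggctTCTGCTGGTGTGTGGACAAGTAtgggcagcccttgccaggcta
Igfbp5: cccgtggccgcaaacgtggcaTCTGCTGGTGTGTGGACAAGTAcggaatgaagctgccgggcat
Igfbp4 shares 14 of these bases with Igfbp3, in capitals, at coding bases 643 to 698.
Igfbp4: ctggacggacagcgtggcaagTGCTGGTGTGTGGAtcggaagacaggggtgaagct
No 31-base run of Igfbp4, Igfbp5 or Igfbp7 coding sequence occurs in a transcript of another gene, and 3 of the 846 runs of Igfbp3 occur in Igfbp2. Only exact runs of coding sequence were searched. Whether reads shared between genes have a part in the opposite differences of Igfbp4 and Igfbp5 was not tested.

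Summed over Igfbp1 to Igfbp7, binding protein transcripts came to 1865, 2161 and 2330 FPKM in PR3_KO 1, 2 and 3 and to 2117, 2451 and 1886 FPKM in WT 1, 2 and 3, ranges that overlap. Igfbp4 made up 36.5%, 27.3% and 25.8% of that sum in PR3_KO 1, 2 and 3 and 16.7%, 13.5% and 15.6% in WT 1, 2 and 3. Igfbp5 made up 11.8%, 14.2% and 15.9% in PR3_KO and 29.6%, 30.3% and 28.3% in WT. Igfbp7 made up 50.9% to 57.5% in PR3_KO and 53.0% to 55.6% in WT. Igfbp4 thus took the second place that Igfbp5 held in WT. Igfbp4 stood at 3.10, 1.93 and 1.63 times the FPKM of Igfbp5 in PR3_KO 1, 2 and 3 and at 0.566, 0.445 and 0.551 times in WT 1, 2 and 3. That log2 ratio differed by 2.04 (p = 0.1 in an exact two-sided permutation test, adjusted 0.167, n = 3 per genotype).

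**Figure D3:**
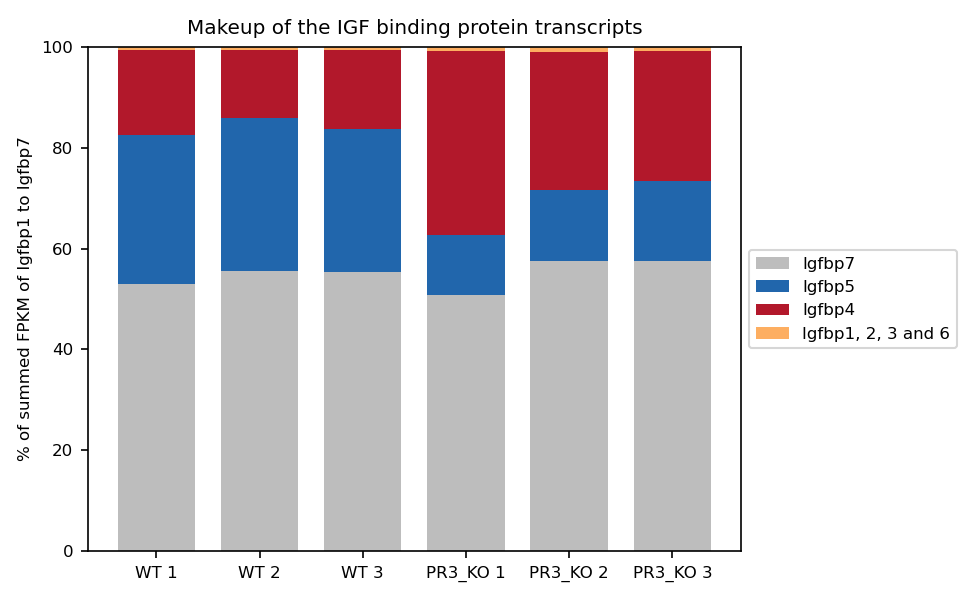
Each bar is 1 library and shows the percent of the summed FPKM of Igfbp1 to Igfbp7 that each gene made up. Igfbp4 (red) is between 25.8% and 36.5% in PR3_KO and between 13.5% and 16.7% in WT, Igfbp5 (blue) is the reverse, and Igfbp7 (grey) covers about the same share in all 6 libraries.

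Igfbp3 and Igfbp5 each have another binding protein gene as a neighbour, with no coding gene between. Igfbp3 and Igfbp1 lie 3.5 kb apart on chromosome 11 in opposite orientation, and their values went opposite ways, with a log2 fold change of -0.71 for Igfbp3 and 1.37 for Igfbp1. Igfbp5 and Igfbp2 lie 5.6 kb apart on chromosome 1. The FPKM of Igfbp2 was 0.22, 0.37 and 0.15 in PR3_KO 1, 2 and 3 and 0.44, 0.73 and 0.21 in WT 1, 2 and 3, below the filter and with overlap (p = 0.3 in an exact two-sided permutation test, n = 3 per genotype).

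The genes whose values ran closest to each member were sought among 144 other tested genes of the pathway and marker lists, by the root mean square distance of their centred log2 values over the 6 libraries. Igfbp4 was nearest to Igfals (distance 0.05), then to the proximal tubule genes Cubn (0.16) and Aqp1 (0.19). Igf1r was nearest to Aqp1 (0.08), to the kinase gene Mtor (0.09) and to Cubn (0.14). Igfbp5 was nearest to the endothelial genes Tie1 (0.13) and Cdh5 (0.14) and to Pik3cd (0.14). Igfbp3 was nearest to the podocyte gene Tcf21 (0.07), then to Fbxo32 (0.09) and Dok4 (0.11). The nearest to Igf1 were Slc4a1, Aqp2 and Gadd45a, at 0.22 to 0.23. The size of a difference counts in this distance, and adding 1 shrinks that of a gene as low as Igf1. Its log2 fold change was -1.12 with 1 added and -2.31 with 0.1 added, and the median of the macrophage markers was -2.45. The distance therefore cannot show whether Igf1 and those markers had a like pattern. For the genes that did not pass, the nearest were Gab1 for Insr (0.09), Sh2b1 for Irs1 (0.07), Gsk3a for Irs2 (0.10), Inppl1 for Igfbp7 (0.09) and Cdkn1a for Foxo1 (0.18). With genotype the main split between libraries, a small distance mostly says that 2 genes had a like difference between genotypes.

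The other genes of the pathway were taken from 4 lists of 80 genes in all, of which 71 passed the filter. Of these 6 rose and 36 fell, with a median log2 fold change of -0.34 against -0.26 for all tested genes. With median-of-ratios scaling 20 rose and 17 fell, with a median of -0.05 against 0.03. The counts of each list stand beside shares among all tested genes of 11.7% (higher in PR3_KO) and 41.1% (lower) before scaling, and of 25.6% and 22.2% after it. The balance of rises and falls in the 4 lists together therefore depends on the scaling.

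Among 14 genes for other ligands, receptors, binding proteins and their proteases, 7 passed the filter, 3 rose and 1 fell (median 0.39, and 0.71 with scaling, where 4 rose and 0 fell). Beside Igfbp1, Igfals rose from 3.25, 3.42 and 2.65 FPKM in WT 1, 2 and 3 to 7.18, 6.36 and 6.29 in PR3_KO 1, 2 and 3 (0.89 on the log2 scale, SE 0.12, limma adjusted p = 0.00116). It encodes the acid-labile subunit, which holds IGFs in a large complex with Igfbp3 or Igfbp5. Htra1, a secreted protease that can cut Igfbp5, rose from 59.9 ± 1.13 to 79.1 ± 11.0 FPKM (0.39 on the log2 scale, limma adjusted p = 0.0311), a call lost without PR3_KO 2 (limma adjusted p = 0.115), PR3_KO 3 (0.0984), WT 1 (0.0664) or WT 3 (0.0738). With scaling Htra1 passed at 0.71 (limma adjusted p = 0.00378). Lrp1, an endocytic receptor, fell by 0.72 (limma adjusted p = 0.0190), but did not pass with scaling (-0.44, limma adjusted p = 0.0656) or without PR3_KO 1 (-0.58, limma adjusted p = 0.0645). Pappa, the protease that cuts Igfbp4, was below the filter at 0.30, 0.47 and 0.40 FPKM in PR3_KO 1, 2 and 3 and 1.05, 1.16 and 1.24 FPKM in WT 1, 2 and 3. Its groups did not overlap (p = 0.1 in an exact two-sided permutation test, n = 3 per genotype), and it is named after its values were seen.

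All 17 adaptors and brakes at the receptor passed the filter, of which 11 fell and 0 rose (median -0.52), and 6 fell and 1 rose with scaling (median -0.23). Sh2b2, an adaptor of the insulin receptor, fell from 3.92 ± 0.605 to 1.11 ± 0.207 FPKM (-1.22 on the log2 scale, SE 0.14, limma adjusted p = 0.000873). Dok1 and Dok4, docking proteins downstream of the receptors, fell by 1.21 and 0.90 (limma adjusted p = 0.00309 and 0.00346). Grb2, which links receptors to Ras, fell by 0.62 (limma adjusted p = 0.00161). These 4 genes also passed with scaling, each below 0.

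Of 30 genes of PI3K, Akt and mTOR, 29 passed the filter, 17 fell and 1 rose (median -0.35), while with scaling 10 rose and 9 fell (median -0.06). Sgk1, a kinase related to Akt, fell from 369.63, 424.92 and 460.99 FPKM in WT 1, 2 and 3 to 146.17, 136.70 and 115.98 in PR3_KO 1, 2 and 3 (-1.65 on the log2 scale, SE 0.14, limma adjusted p = 0.000684). Inpp5d, a lipid phosphatase mainly of blood cells that opposes PI3K, fell by 1.57 (limma adjusted p = 0.000861). Pik3r3, a regulatory subunit of PI3K, fell by 1.33 (limma adjusted p = 0.000896). Akt2, the Akt gene most tied to insulin and named after its values were seen, had a mean of 35.8 ± 1.55 FPKM in PR3_KO and 34.9 ± 0.753 in WT (limma adjusted p = 0.743), but passed with scaling at 0.36 on the log2 scale (limma adjusted p = 0.0173). Tbc1d4, the Akt substrate that controls glucose transporter traffic, fell by 0.91 (limma adjusted p = 0.00127). The single gene that rose, also named after its values were seen, was Mtor (15.3 ± 3.11 to 24.4 ± 1.89 FPKM, 0.66 on the log2 scale, limma adjusted p = 0.00654).

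Of 19 FoxO factors and FoxO target genes, 18 passed the filter, 7 fell and 2 rose (median -0.18), and with scaling 2 fell and 5 rose (median 0.13). Pck1, an enzyme of gluconeogenesis that the proximal tubule expresses, rose from 696 ± 241 to 2369 ± 467 FPKM (1.81 on the log2 scale, SE 0.29, limma adjusted p = 0.00211). Gadd45a, a stress response gene, and Sesn1, a sestrin, fell by 1.15 and 0.71 (limma adjusted p = 0.00114 and 0.00163). Txnip, a glucose-responsive gene, and the factor Foxo4 fell by 0.55 and 0.37 (limma adjusted p = 0.00565 and 0.00758), but neither passed with scaling (-0.22 and -0.06, limma adjusted p = 0.175 and 0.543). The other gene that rose was Cat, encoding catalase and named after its values were seen (0.74, limma adjusted p = 0.0201), a call lost without PR3_KO 1 or PR3_KO 3 (limma adjusted p = 0.0693 and 0.0707). As deposited the counts of this list lie near the background, where 41.1% of all tested genes fell and 11.7% rose. The list also holds FoxO factors, so the counts are not of targets alone. Foxo1 itself did not pass.

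**Figure D4:**
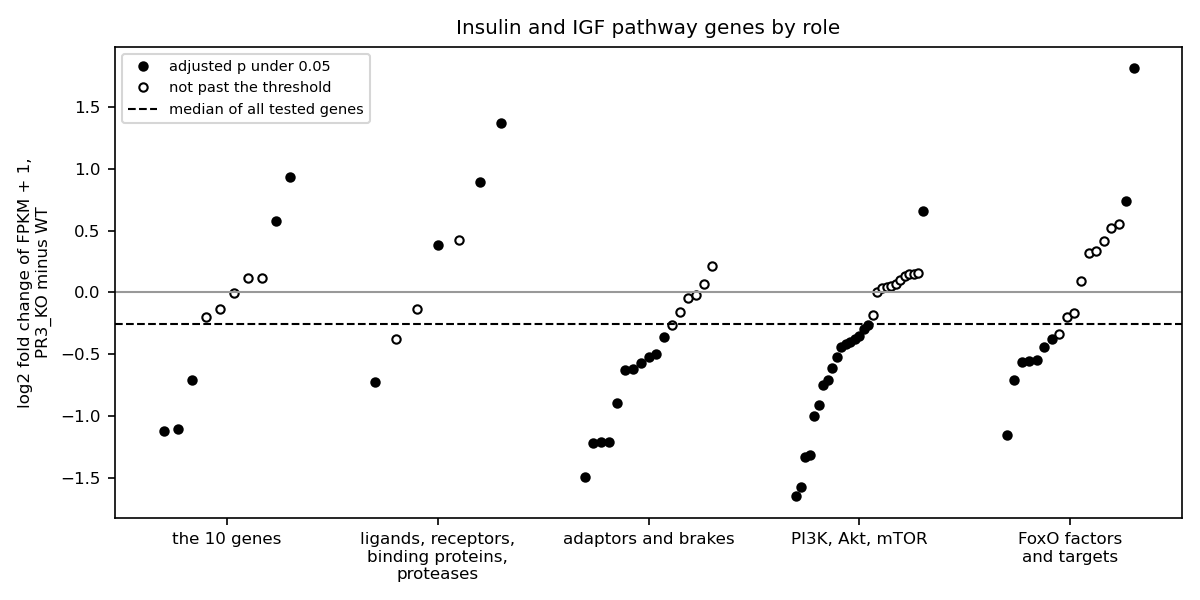
The log2 fold change of FPKM + 1 (PR3_KO minus WT) is plotted on the y axis for each tested gene, grouped by role and sorted within a group, with filled points for adjusted p under 0.05 and the median of all tested genes (-0.26) as a dashed line. Filled points lie on both sides of 0 among the 10 genes, and 11 of 17 adaptors and 17 of 29 PI3K, Akt and mTOR genes are filled below 0.

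Scaling changed part of these calls. The 9 that reached the filter with median-of-ratios scaling, all but Igf1, gave 6 calls, beside 47.8% of all tested genes: 4 rises (Igfbp4 at 1.27, Igf1r at 0.89, Irs2 at 0.38 and Irs1 at 0.31) and 2 falls (Igfbp5 at -0.77 and Igfbp3 at -0.43). Igf1, tested with no filter on the scaled values, was at -0.98 (limma adjusted p = 0.0165), an alternative chosen after seeing the data. The calls of Igf1r, Igfbp3, Igfbp4 and Igfbp5 held with and without scaling. Igf1 had a call with scaling only in the fit with no filter. Insr, Igfbp7 and Foxo1 changed sign with scaling without passing under either.

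**Figure D5:**
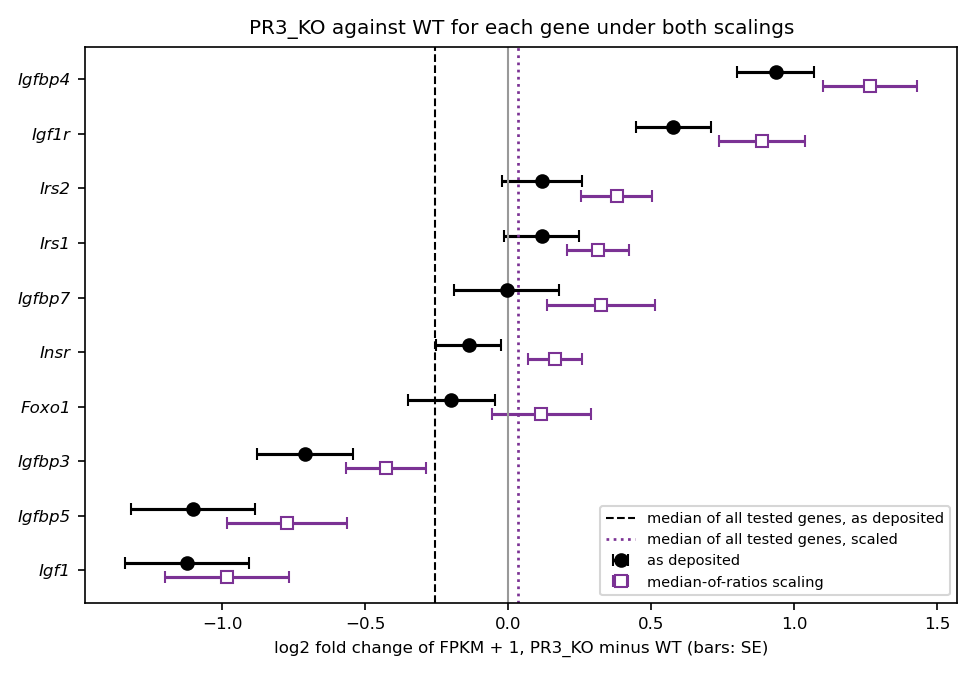
Log2 fold changes of FPKM + 1 (PR3_KO minus WT, x axis) of the 10 genes with their SE are shown as deposited (black circles) and with median-of-ratios scaling (open squares, Igf1 with no filter), beside the medians of all tested genes at -0.26 and 0.03. Igfbp4 and Igf1r lie right of 0 and Igfbp3, Igfbp5 and Igf1 left of 0 under both, while Insr, Igfbp7 and Foxo1 cross it.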

How the data were processed

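The deposited values are FPKM per Entrez gene ID, per the file headers, rounded by the authors to 2 decimals, with no counts. Bowtie2 and the build GRCm38.p6 are named in the submitters' processing notes. For the quantification tool, annotation, strand setting and filters nothing is given in the sources used here. RNA was extracted with Trizol and selected on oligo(dT) beads, per the labels' protocols. Of 22064 IDs per file 3242 were empty, and 18770 of the other 18822 matched a symbol in the RefSeq gene table. The depth estimate takes the commonest low value (0.07 or 0.08 FPKM) of 33 olfactory receptor genes with a median span of 939 bases as 1 fragment, carried by 3 to 7 genes per library, so it is rough. Counts were not derived.

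The test took genes whose mean reached 1 FPKM and was run with limma 3.58.1 and statmod 1.5.0 in R 4.3.3 on log2(FPKM + 1), with genotype as the only term, an intensity trend and robust moderation, and Benjamini-Hochberg adjustment over all 12388 genes. The step was tested on simulated data. Other work used Python 3.11.15, pandas 2.3.3, numpy 2.4.6, scipy 1.17.1 and matplotlib 3.10.9. Alternatives were another pseudocount, no filter, median-of-ratios scaling, no trend, a replicate block, and leaving out libraries. Sequences came from RefSeq and GENCODE release M21, both on GRCm38. The 10 genes, the pathway and marker lists and the tests were chosen with earlier results of these data known. A hepatocyte list had 3 of 4 tested genes rise. Named genes are the 10, up to 5 per pathway list with the smallest adjusted p among those that passed, and Igfbp1 and Igfbp2 as neighbours. Some genes that this rule names are not reported here.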

Additional observations from a re-analysis of the deposited data

How the results depend on the processing

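The number of the 10 genes past the threshold was 5 as reported, 6 with median-of-ratios scaling and 4 to 6 with 1 library left out. It was 5 without WT 2 and PR3_KO 3 together, in limma as in the others. In the 5 genes that passed, direction and call held in each alternative that gave a value, with the largest limma adjusted p at 0.0165 for Igf1, 0.0299 for Igf1r, 0.0368 for Igfbp3, 0.00845 for Igfbp4 and 0.0195 for Igfbp5. Igf1 fell under the filter with scaling and without WT 2 or WT 3. With no filter it was at -1.21 without WT 2 and -0.87 without WT 3 (limma adjusted p = 0.00971 and 0.0128), alternatives chosen after seeing the data. Over all genes 6545 passed as deposited and 5900 with scaling, 4789 to 6249 with 1 library left out.

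Replicate numbers gave no clear sign of pairing: the deviations of libraries sharing number 1, 2 and 3 correlated at 0.07, 0.27 and -0.09. In the fit with a replicate block, 5 of the 10 genes, 41 other pathway genes and 6693 genes in all passed. The block lowered the SE of Igfbp3 from 0.167 to 0.107 and raised that of Igfbp4 from 0.134 to 0.143. PR3_KO 1 correlated best with WT 3 (0.32), PR3_KO 2 with WT 2 (0.27) and PR3_KO 3 with WT 1 (0.06). The depth is an estimate from few genes, so the precision of Igf1 and other genes near 1 FPKM is limited by few fragments.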
